A study of Mus musculus with 12 samples.

Results

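The levels of 8 genes were followed through cochlear RNA of mice labelled Dusp1 KO and WT: Gm10653, Slc6a17, Zfp365, Gdap1, Rab30, Cpxm1, Ddah1 and 6330403K07Rik. They were chosen by their FPKM difference between KO and WT in these same libraries and lie off chromosome 17, the chromosome of Dusp1, so every KO against WT value of the 8 genes below is a description without a test. They are 8 of 23951 genes in the expression table, and all 8 passed the filter on low values that left 16271 genes for testing. The study set Dusp1-/- mice (KO) against Dusp1+/+ mice (WT), all of the mixed strain 129S2/SvPas:C57BL/6, to ask what the loss of DUSP1 changes in the ageing cochlea. RNA of cochleae separated from the vestibule was read in 12 libraries, 3 per group: KO at 5 months (E7, F18 and F19), WT at 5 months (E1, E3 and E4), KO at 8 months (F5, F6 and F27) and WT at 8 months (F1, F10 and F12). Males and females were analysed together, and the meaning of the letters E and F is not stated: all WT libraries at 5 months are E, 1 of the 3 KO libraries at 5 months is E, and all 8-month libraries are F. The labels do not say how animals and libraries correspond, so p-values measure only the spread between these libraries.

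DUSP1 is a nuclear phosphatase that removes phosphate from the MAP kinases p38, JNK and ERK. The cochlea is a mixed organ of sensory hair cells, spiral ganglion neurons with their Schwann cells, the ion-pumping stria vascularis, fibrocytes and bone with marrow spaces. In RNA of the whole organ, fewer cells of a type and less RNA per cell cannot be told apart. Among the 8 genes, Slc6a17, Zfp365, Gdap1 and Rab30 have known roles in synaptic vesicles, the centrosome, mitochondria and the Golgi, Cpxm1 encodes a secreted protein and Ddah1 an enzyme of nitric oxide control, and Gm10653 is a noncoding transcript.

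The FPKM of a library (fragments per kilobase of transcript and per 1e6 mapped reads) summed to 501181 to 583698 over all genes, and as no read numbers come with them the depth is unknown. Dusp1 itself went against the labels. It read 61.9 to 81.5 FPKM in the KO libraries at 5 months, against 29.5 to 60.8 FPKM in the WT libraries, and 55.6 to 73.7 FPKM in KO at 8 months, against 38.3 to 43.0 FPKM in WT. The libraries labelled KO thus had more Dusp1 RNA at both ages, with no overlap, and a whole-gene FPKM does not show which exons were read. Every KO and WT in the following text, and every direction drawn from them, is a library labelled so. Library E1 stood apart by RNA of inhibitory central neurons: Gad1 read 41.9 FPKM in E1 and 1.66 to 4.65 FPKM in the 11 others, and Slc32a1 read 10.4 FPKM in E1 and at most 0.126 FPKM elsewhere. Skeletal muscle markers, 8 genes, summed to 791.1 FPKM in F18 (KO) and 1052 FPKM in E3 (WT), both of 5 months, and to 8.63 to 168.8 FPKM in the other 10 libraries. Xist, which is transcribed from the inactive X chromosome, had 34.9 FPKM or more in E4, F6, F27 and F1 and at most 0.0935 FPKM in the 8 others, and none of those 4 is a KO library at 5 months.

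Gm10653 was the one gene of the 8 that was higher in KO, and it was so at both ages. It lies on mm9 at chr9:62689284-62709831 on the minus strand and is annotated with 1 noncoding transcript of 4 exons and 1232 bases. Its span overlaps Cln6, which encodes a membrane protein of the endoplasmic reticulum, and Calml4, a calmodulin-like gene, both on the other strand. Exon 2, of 181 bases, lies wholly inside an exon of Cln6, and the sources do not say whether the strand of the reads was used in the quantification. Exon 4 takes up the last 882 bases. RefSeq lists the gene as a transcribed pseudogene, and its exon 4 reads as a copy of Rps2, which encodes a protein of the small ribosomal subunit. Over a coding exon of Rps2 the sequences differ in 5 of 198 bases, which gives 97.5% identity. The stretches are shown because a read of 50 bases within them may fit both genes: Gm10653 is at chr9:62689799-62689996, minus strand, and Rps2 at chr17:24857479-24857676, plus strand, both on mm9, with the differing bases in capitals.

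Gm10653: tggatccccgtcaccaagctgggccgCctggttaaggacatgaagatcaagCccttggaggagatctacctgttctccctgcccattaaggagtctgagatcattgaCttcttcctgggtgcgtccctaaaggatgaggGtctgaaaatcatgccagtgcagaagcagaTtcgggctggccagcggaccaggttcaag
Rps2: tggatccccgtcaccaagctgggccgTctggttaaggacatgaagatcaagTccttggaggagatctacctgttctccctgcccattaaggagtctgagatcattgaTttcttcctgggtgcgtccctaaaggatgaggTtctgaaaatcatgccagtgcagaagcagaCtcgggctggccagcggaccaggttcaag

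Most of the Gm10653 transcript was not unique at the length of a read. Of its 1183 windows of 50 bases, the read length, 57.1% had at least 1 other place in mm9 within 2 mismatches, the number the authors allowed, and 618 had more than 4 other places, where the authors allowed 5 alignments per read. In exon 4, 501 of 833 windows came within 2 mismatches of the Rps2 mRNA, and the genome held 80 further alignments of at least 800 bases on 20 chromosomes, at identities of 65.5 to 92.9%, none over an annotated exon. Of windows starting in exons 1 to 3, 276 of 350 had no other place. Rps2 lies at chr17:24857008-24858872, 1.78 Mb from Dusp1, and another copy, of 744 aligned bases at 90.6% identity to Gm10653, lies 34.5 kb from Dusp1. Slc6a17 and Zfp365 had 1.33 and 1.57% of their transcript bases in alignments elsewhere of at least 50 bases at 96% identity or more, against 33.7% for Gm10653, and the other 5 genes had 0%. This measure counts whole alignments and can miss matches of read length inside longer, less similar ones. The window count was made for Gm10653 alone.

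**Figure D1:**
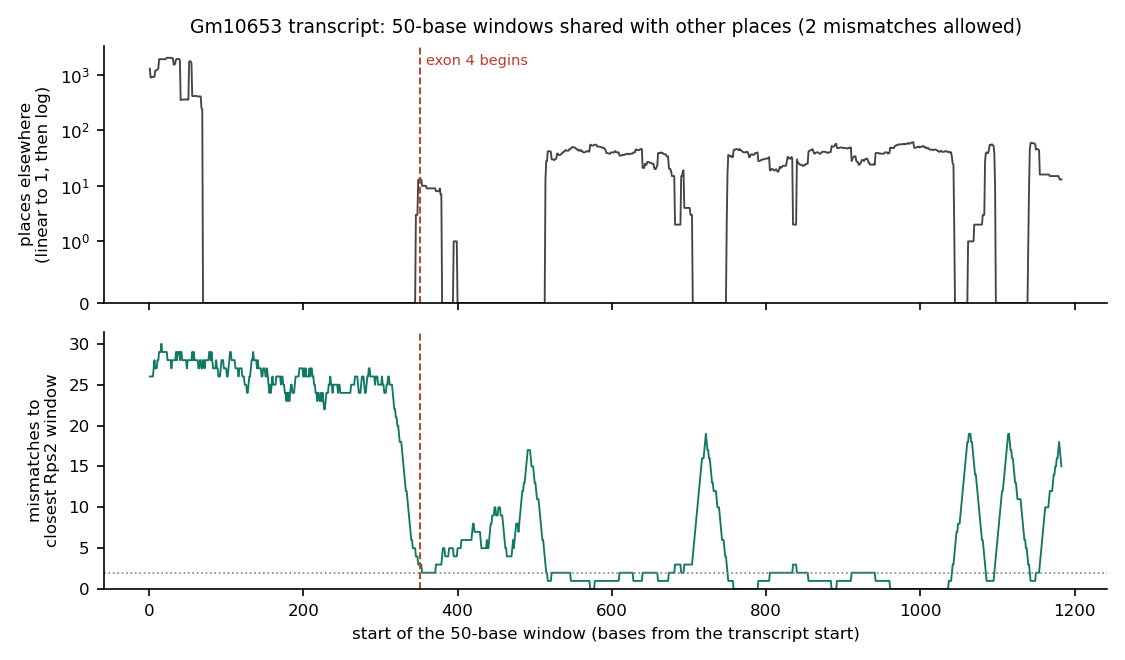
Windows of 50 bases along the Gm10653 transcript, by their start in bases from the transcript start. The upper panel counts other places in mm9 within 2 mismatches (axis linear to 1, then log), and the lower panel gives the mismatches to the closest window of the Rps2 mRNA (dotted line at 2); right of the dashed line, where exon 4 begins, 501 of 833 windows are within 2 mismatches of Rps2.

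The FPKM of Gm10653 read 13.1, 10.7 and 9.70 in KO at 5 months, against 3.30, 3.18 and 2.75 in WT. The 8-month libraries read 13.01, 14.3 and 13.3 in KO, against 2.95, 3.56 and 3.29 in WT. The lowest KO library lay far above the highest WT library at both ages, and the WT level was nearly the same at 5 and 8 months. The ratio of the means was 3.62 at 5 months and 4.14 at 8 months, or a log2 change (KO over WT, on log2(FPKM + 0.5), the scale of all changes below) of 1.70 ± 0.11 and 1.90 ± 0.11 (SE, n = 3 libraries per group). Rps2 itself averaged 535.0 ± 29.9 FPKM in KO and 431.8 ± 27.3 FPKM in WT at 5 months, and 559.7 ± 82.7 FPKM in KO and 514.8 ± 32.5 FPKM in WT at 8 months (SD, n = 3). Its change of 0.31 ± 0.11 at 5 months did not pass the adjusted threshold (limma, adjusted p = 0.218), and the part of reads from Rps2 or its copies in the Gm10653 values was not tested.

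Neither of the genes that overlap Gm10653 was called. Cln6 averaged 12.002 ± 0.819 FPKM in KO and 10.6 ± 0.591 FPKM in WT at 5 months, with a change of 0.12 ± 0.058 over both ages (limma, adjusted p = 0.311). Calml4 had a change of −0.13 ± 0.12 over both ages (limma, adjusted p = 0.612). Of all tested genes other than the 8, the 3 whose log2 levels ran closest to Gm10653 over the 12 libraries were Mir7067 (Pearson r = 0.989), Nthl1 (r = 0.920) and Meiob (r = 0.918). These points share 4 groups of 3 libraries and one genotype difference. Mir7067, a microRNA gene, averaged 67.2 FPKM in KO at 5 months and 66.7 FPKM in KO at 8 months and is listed at 0 in all 6 WT libraries. Nthl1, a DNA repair glycosylase, and Meiob, a meiosis gene, lie on chromosome 17 at 1.87 and 1.67 Mb from Dusp1.

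**Figure D2:**
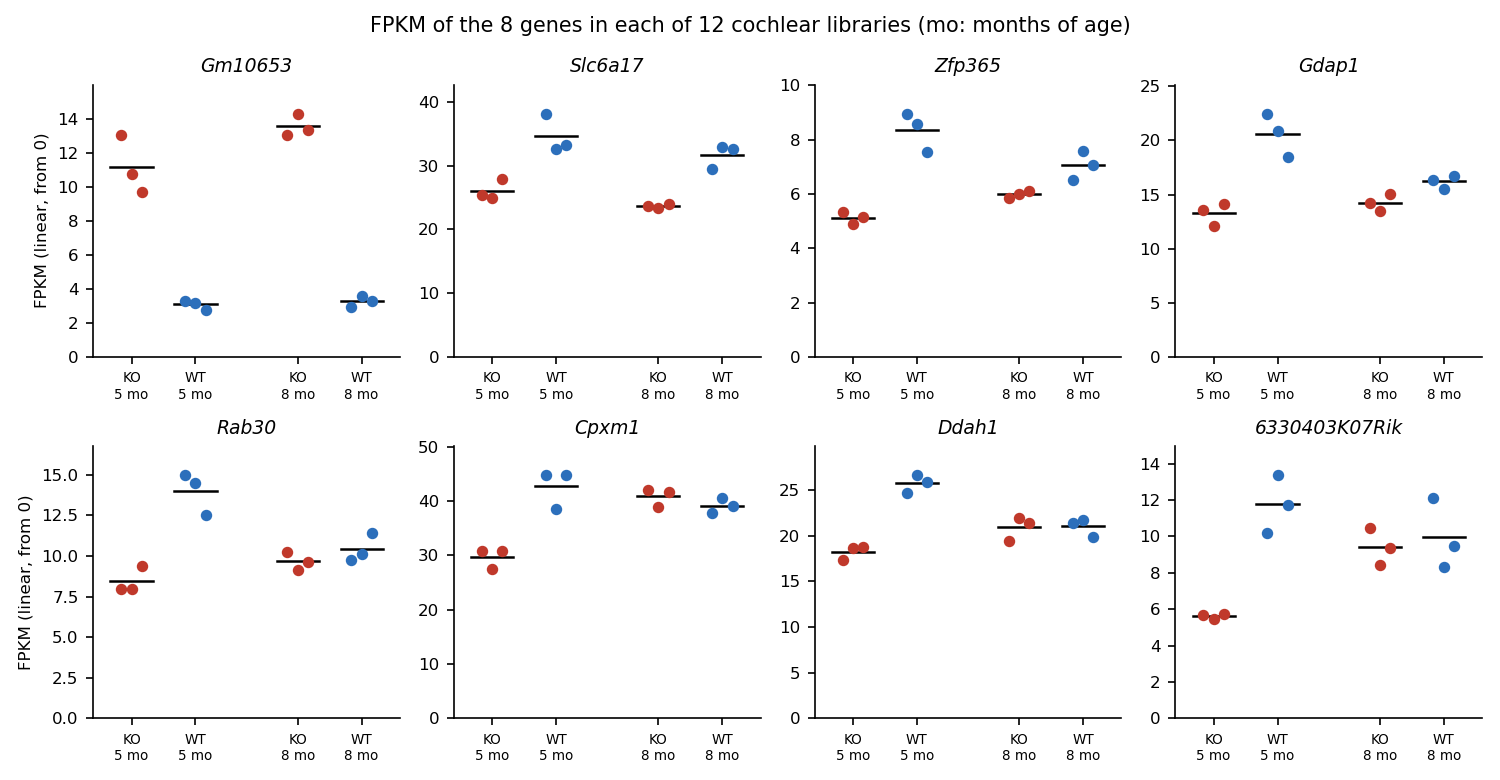
FPKM (linear axes from 0) of each of the 8 genes in the 12 libraries, with KO in red left of WT in blue at 5 and at 8 months; points are libraries and lines are means of 3. Gm10653 sits at 9.70 to 14.3 FPKM in KO and 2.75 to 3.56 in WT, while Rab30, Cpxm1, Ddah1 and 6330403K07Rik separate the genotypes at 5 months only.

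The other 7 genes were lower in KO at 5 months. Slc6a17 encodes a synaptic vesicle transporter for neutral amino acids (NTT4) and lies at chr3:107270466-107320936 on the minus strand, with 12 exons. Its FPKM read 25.4, 24.9 and 27.9 in KO at 5 months, against 38.2, 32.6 and 33.2 in WT. Its 8-month FPKM were 23.7, 23.3 and 23.9 in KO, against 29.5, 32.99 and 32.6 in WT. Every KO library was below every WT library, and the gap was of one size at both ages: −24.8% at 5 months and −25.3% at 8 months, or −0.40 ± 0.075 and −0.41 ± 0.075 in log2. Without E1 the 5-month value was −0.33 ± 0.071. Slc6a17 was called over both ages and at neither age alone, and such a choice would by itself favour gaps of similar size.

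Zfp365 and Gdap1 were lower in KO at both ages, with the smaller gap at 8 months. Zfp365, known as a zinc finger protein of the cytoplasm and centrosome and, in human cells, for its part in the restart of stalled replication forks, lies at chr10:67348853-67375410, minus strand. Its FPKM read 5.33, 4.91 and 5.15 in KO at 5 months, against 8.96, 8.58 and 7.55 in WT. The 8-month values were 5.86, 5.995 and 6.11 in KO, against 6.503, 7.58 and 7.07 in WT. The groups did not overlap at either age, and the gap was −38.7% at 5 months and −15.1% at 8 months. Gdap1, a protein of the outer mitochondrial membrane that acts in fission and is mutated in a human inherited neuropathy, lies at chr1:17135454-17154351, plus strand. Its FPKM read 13.6, 12.1 and 14.2 in KO at 5 months, against 22.5, 20.9 and 18.4 in WT. By 8 months they were 14.2, 13.5 and 15.03 in KO, against 16.4, 15.5 and 16.7 in WT. The KO level was close at both ages (13.3 ± 1.05 and 14.3 ± 0.780 FPKM), and the WT level was 20.6 ± 2.03 FPKM at 5 months and 16.2 ± 0.627 FPKM at 8 months (SD, n = 3).

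In Rab30, Cpxm1, Ddah1 and 6330403K07Rik the genotypes were apart at 5 months and overlapped at 8 months. Rab30 encodes a small GTPase of the Golgi and lies at chr7:99890224-99985627, plus strand. Its FPKM read 7.97, 7.94 and 9.38 in KO at 5 months, against 14.97, 14.5 and 12.5 in WT. In the older mice they were 10.2, 9.16 and 9.65 in KO, against 9.75, 10.1 and 11.4 in WT. The WT libraries at 5 months were the ones that stood above the rest, and the change was −0.70 ± 0.095 at 5 months and −0.10 ± 0.095 at 8 months.

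Cpxm1 encodes a secreted protein of the carboxypeptidase family that lacks the catalytic residues, and lies at chr2:130216511-130223365, minus strand, with 14 exons. Its FPKM read 30.7, 27.5 and 30.8 in KO at 5 months, against 44.7, 38.6 and 44.7 in WT. At 8 months it read 42.1, 38.9 and 41.6 in KO, against 37.7, 40.6 and 39.0 in WT. The KO libraries at 5 months stood below the 9 others, and the KO mean at 8 months was 4.45% above that of WT, a change of 0.062 ± 0.073 that is smaller than its error.

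Ddah1 breaks down asymmetric dimethylarginine, a natural inhibitor of nitric oxide synthases, and lies at chr3:145421656-145557241, plus strand. Its FPKM read 17.3, 18.6 and 18.8 in KO at 5 months, against 24.7, 26.6 and 25.9 in WT. The older mice gave 19.4, 22.0 and 21.5 in KO, against 21.4, 21.8 and 19.9 in WT. The KO libraries at 5 months were the lowest 3 of the 12 and the WT libraries at 5 months the highest, with the 8-month libraries of both genotypes between them. The change was −0.49 ± 0.066 at 5 months and −0.0062 ± 0.066 at 8 months.

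6330403K07Rik, a small gene of 2 exons with 363 coding bases at chr11:70845443-70847119, minus strand, had the widest gap of the 7 at 5 months. Its FPKM read 5.67, 5.49 and 5.74 in KO at 5 months, against 10.2, 13.4 and 11.7 in WT. At 8 months it read 10.4, 8.41 and 9.38 in KO, against 12.1, 8.34 and 9.45 in WT. The coefficient of variation was 2.30% over the KO libraries at 5 months and 19.4% over the WT libraries at 8 months. The change was −0.99 ± 0.14 at 5 months and −0.068 ± 0.14 at 8 months.

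**Figure D3:**
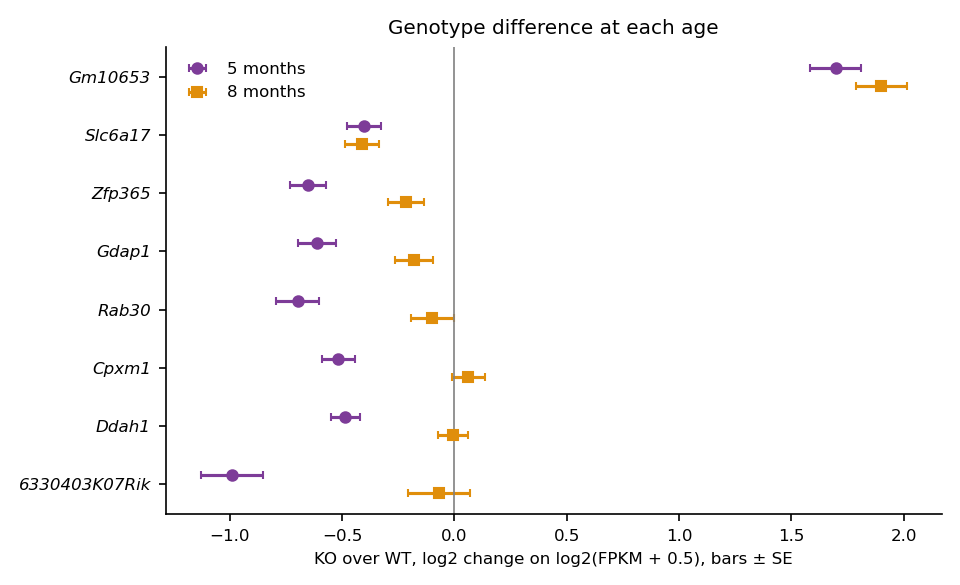
Log2 change of KO over WT on log2(FPKM + 0.5) for each gene, with circles for 5 months and squares for 8 months and bars of ± 1 SE from the fit of all 12 libraries. Gm10653 (1.70 and 1.90) and Slc6a17 (−0.40 and −0.41) hold their size between ages, and the other 6 lie nearer to 0 at 8 months. Those 6 were called at 5 months and not at 8 months, and a choice by the 5-month gap would by itself favour this. Slc6a17 was called over both ages and at neither age alone, a choice that would favour similar gaps.

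These values chose the genes and are set beside the background only for scale. In the limma fit across 16271 genes, 4 were called higher (0.0246%) and 7 lower (0.043%) in KO at 5 months at an adjusted p under 0.05. At 8 months 2 were called higher (0.0123%) and none lower, and averaged over ages 7 were called higher (0.043%) and 6 lower (0.0369%). Genes with no overlap between the 6 KO and 6 WT libraries made up 0.289% of those tested when KO was higher, as for Gm10653, and 0.928% when it was lower, as for Slc6a17, Zfp365 and Gdap1. At 5 months alone, the 3 KO libraries lay below the 3 WT libraries in 13.8% of genes, the 7 lower genes among them, and at 8 months in 6.18%, Slc6a17, Zfp365 and Gdap1 among them. Of the 8 genes, all but Slc6a17 were among those called at 5 months, Gm10653 was called at 8 months, and Gm10653, Slc6a17 and Zfp365 were called over both ages. Over both ages the calls of Slc6a17 and Zfp365 were lost with the code letter or the neutrophil markers as covariate, without E7 and F5 together, and without E7, F18, F19, E1, E3, F5, F6, F10 or F12 alone, and that of Slc6a17 also without E4. At 5 months the code letter, the neutrophil markers and leaving out E7 and F5 together each left Gm10653 as the one of the 8 still called. So did leaving out E7, F18, F19, E1, F6 or F12 alone, and leaving out any 1 of the others left 2 to 5 of the 8. Within a group the code letter differs only in KO at 5 months, where E7 is the E library. With the letter as covariate the 5-month change is therefore that of E7 alone against the 3 WT libraries.

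The change with age, averaged over both genotypes, was not used to choose the genes, but it rests on the same 12 libraries and its error on the same residual spread as the genotype contrasts, so its p-values are not independent of the choice. It asked whether their level differed between 8 and 5 months. None of the 8 passed the adjusted threshold, beside 1 gene of 16271 called higher at 8 months (0.00615%) and none lower. At an unadjusted p under 0.05, a threshold passed by 10.2% of genes upward and 6.23% downward, Cpxm1 was higher at 8 months (0.17 ± 0.052, adjusted p = 0.203 by limma) and so was 6330403K07Rik (0.23 ± 0.097, adjusted p = 0.287 by limma), and Slc6a17 was lower (−0.13 ± 0.053, adjusted p = 0.262 by limma). Within each genotype Slc6a17 (−0.14 in KO and −0.13 in WT, log2) and Gm10653 (0.28 in KO and 0.073 in WT) had 8-month minus 5-month differences of the same sign, and the other 6 genes had a positive difference in KO and a negative one in WT. In 6330403K07Rik the 8-month mean differed from the 5-month mean by 0.69 in KO and −0.24 in WT (log2), and in Cpxm1 these differences were 0.46 in KO and −0.12 in WT. In Rab30 they were 0.19 in KO and −0.41 in WT. These within-genotype differences share the libraries that chose the genes and carry no test. The 6 genes with opposite signs were all called at 5 months and none of them at 8 months. A choice by a wide 5-month gap would by itself favour a smaller gap at 8 months and such signs. Whether the gap changed with age was not tested.

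By level per length, Cpxm1 (38.1 FPKM over the 12 libraries), Slc6a17 (29.0), Ddah1 (21.5) and Gdap1 (16.1) were the more abundant, followed by Rab30 (10.6), 6330403K07Rik (9.19), Gm10653 (7.76) and Zfp365 (6.63). Rab30 and 6330403K07Rik overlapped in the 8-month libraries of both genotypes and do not differ there beyond their spread.

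For each of the 7 lower genes, the tested genes whose log2 levels ran closest to it over the 12 libraries were looked up. The 3 genes closest to Slc6a17 were Snap91 (r = 0.957), a clathrin adaptor of nerve terminals, Rgs7bp (r = 0.954) and the sodium channel Scn8a (r = 0.951). Atp6v0a1, a subunit of the vacuolar ATPase, was closest to Zfp365 (r = 0.953). Napb, which helps to take apart vesicle fusion complexes, was closest to both Gdap1 (r = 0.962) and Rab30 (r = 0.953). Dnm3, a dynamin, was next to Rab30 (r = 0.939). Cpxm1 ran closest to Letm2 (r = 0.946), Ddah1 to Elovl4 (r = 0.907) and 6330403K07Rik to Elp3 (r = 0.902). Among the genes themselves, Rab30 and Gdap1 had r = 0.962, and with each group's mean taken away their r was still 0.750, whereas 6330403K07Rik and Slc6a17 had r = 0.440 and −0.638 after the group means were taken away. All these are descriptions over 12 libraries that share 4 groups, and the same genotype difference enters each of them.

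Markers of several cell types differed between the groups. The summed FPKM of 17 neuron markers was 2146 to 2474 in KO at 5 months, against 2653 to 2755 in WT, and 2621 to 2900 in KO at 8 months, against 2763 to 3056 in WT. At 5 months 8 of 17 were lower in KO at an unadjusted p under 0.05, beside 9.93% of all genes, and none higher, beside 8.24% of all genes, and none was called. Their median change was −0.30, beside −0.027 over all genes tested. Snap25, a fusion protein of synaptic vesicles, averaged 466.1 FPKM in KO and 651.8 FPKM in WT at 5 months. Among the brain and brainstem markers, Slc17a6, a vesicular glutamate transporter, averaged 17.6 ± 0.860 FPKM in KO and 26.3 ± 3.597 FPKM in WT at 5 months (SD, n = 3). That list, 13 tested, had 5 lower at 5 months and a median of −0.60, with summed FPKM of 160.3 to 207.9 in KO at 5 months, against 197.2 to 318.1 in WT. Without E1, 10 of the 13 passed the filter on low values and their median was −0.35, and the median of the neuron markers was −0.21. No neuron or brain marker was under 0.5 FPKM in every library, but Slc32a1 reached that level in E1 alone. The 5 lower brain and brainstem markers were counted with E1 in the fit. Without E1, the 5-month changes of the 7 lower genes ran from −0.33 in Slc6a17 to −1.09 in 6330403K07Rik and that of Gm10653 was 1.74. In the 8 Schwann cell markers none passed the unadjusted threshold and the median was −0.098. Likewise none passed at 5 months among the stria vascularis, fibrocyte, bone and skeletal muscle markers. Of 11 hair cell markers 1 was higher and none lower at that threshold. The other 10 had changes below 0, and the median of the 11 was −0.21. Without F18 the 5-month changes of the 7 lower genes ran from −0.37 in Slc6a17 to −0.97 in 6330403K07Rik, and without E3 from −0.44 to −0.90 in the same genes.

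Neutrophil markers differed in the other direction. All 17 were higher in KO at 5 months at the unadjusted threshold, none was called, and their summed FPKM was 4208 to 23183 in KO at 5 months, against 93.6 to 704.3 in WT, and 918.0 to 17014 in KO at 8 months, against 717.1 to 4690 in WT. E7 and F5 held the most of it in their KO groups. Without both, the 5-month changes of the 7 lower genes ran from −0.39 in Slc6a17 to −0.996 in 6330403K07Rik and that of Gm10653 was 1.58. With the neutrophil level as a covariate the change of Ddah1 at 5 months was −0.32 ± 0.079 and that of Rab30 −0.88 ± 0.13. Of the B cell markers 10 of 11 and of the red cell markers 6 of 8 were higher in KO at 5 months at the unadjusted threshold. At 8 months no neutrophil, B cell or red cell marker passed it, with median changes of 0.85, −0.15 and 0.27. The part of neuron or blood cell content in the differences of the 8 genes was not tested.

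**Figure D4:**
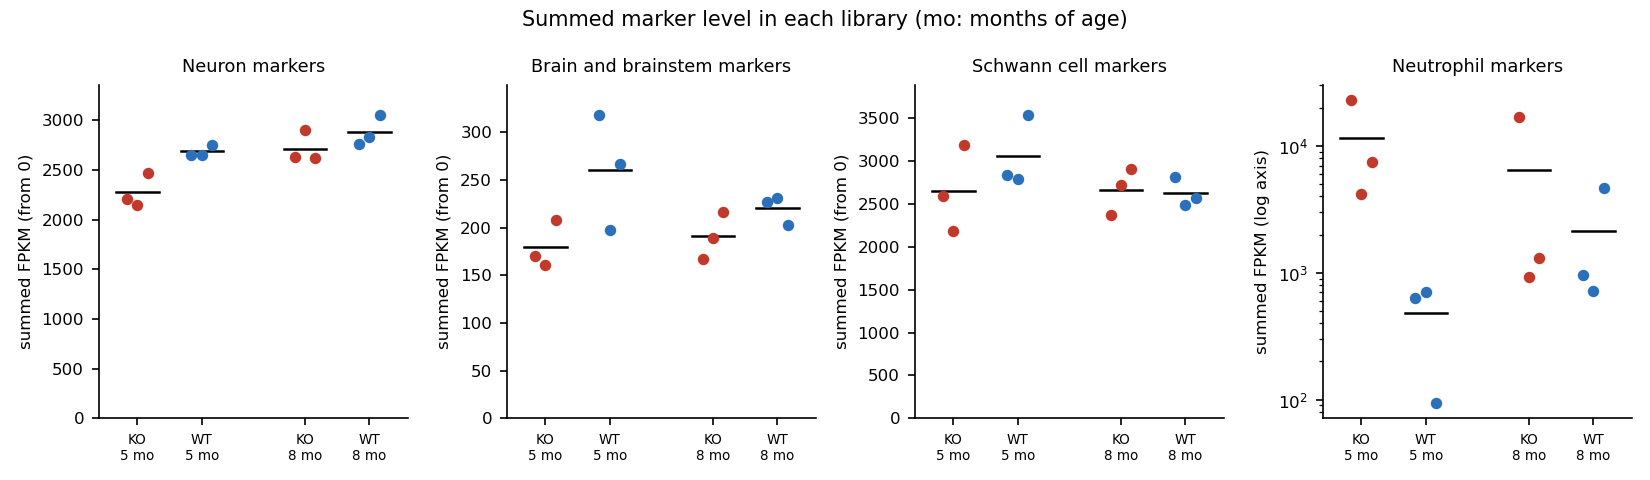
Summed FPKM of fixed marker lists in each library, with KO in red left of WT in blue at each age, points as libraries and lines as means of 3; the neutrophil axis is logarithmic and the others start at 0. Neuron markers sum to 2146 to 2474 FPKM in KO at 5 months, below the 2653 to 2755 of WT, and the highest brain and brainstem sum, 318.1, is library E1.

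The relatives of the 8 genes were read in lists by pathway, and none of these lists held a called gene outside the 8. Of 14 other SLC6 transporters tested, averaged over both ages 1 was higher and 3 were lower at an unadjusted p under 0.05, beside 7.75 and 9.66% of all genes. Slc6a15, a neutral amino acid transporter, averaged 29.8 FPKM in KO and 39.2 FPKM in WT at 5 months (−0.25 ± 0.054 over both ages, limma, adjusted p = 0.117). Slc6a4, the serotonin transporter, was the one in the other direction (1.30 ± 0.34, adjusted p = 0.161 by limma), and Slc6a11 and Slc6a13, both GABA transporters, changed by −0.45 ± 0.16 and −0.36 ± 0.14. Of 17 genes of mitochondrial fission and fusion other than Gdap1, 5 were lower over both ages and none higher. Dnm1l, the dynamin-like GTPase that divides mitochondria, changed by −0.17 ± 0.052 (limma, adjusted p = 0.208), with Mfn1 at −0.13, Slc25a46 at −0.17 and Mff at −0.11. Among 25 inherited neuropathy genes 3 were higher and 1 lower, with Kif1b, a motor of axonal transport, at −0.22 ± 0.065 (limma, adjusted p = 0.194). The higher ones were Lmna of the nuclear lamina (0.18 ± 0.061), the dynamin Dnm2 (0.22 ± 0.076) and the small heat shock protein gene Hspb1 (0.24 ± 0.099), at adjusted p of 0.225 to 0.260 by limma.

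Among 56 RAB GTPases other than Rab30, 3 were higher and 8 lower over both ages at the unadjusted threshold. These counts and those of the next lists stand beside 7.75% of all genes higher and 9.66% lower. Those with the smallest p were Rab6b of the Golgi (−0.23 ± 0.049), Rab3c of synaptic vesicles (−0.53 ± 0.12), Rab39b (−0.28 ± 0.063) and Rab40c (−0.16 ± 0.042), at adjusted p of 0.117 to 0.158 by limma. Of 8 carboxypeptidases other than Cpxm1, Cpe, which trims peptide hormones, was the one that was lower (−0.15 ± 0.064, limma, adjusted p = 0.278), and Cpxm2, of the same subfamily by name, changed by −0.083 ± 0.091. In the nitric oxide list of 29 genes 3 were lower, Slc7a1, an arginine transporter (−0.16 ± 0.053), Gucy1a2 (−0.28 ± 0.12) and Prkg2 (−0.19 ± 0.082), and none higher. Ddah2, of the same family by name as Ddah1, averaged 41.0 FPKM over the 12 libraries and changed by 0.095 ± 0.070. In the list of replication fork genes, 25 besides Zfp365, 2 were higher and 1 lower: Rpa3 (0.32 ± 0.10), Clspn (0.85 ± 0.38) and Smarcal1 (−0.10 ± 0.046).

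None of the genes around the 8 loci was called. Within 1 Mb lay 181 other tested genes, of which 16 (8.84%) were higher and 14 (7.73%) lower in KO over both ages at an unadjusted p under 0.05, beside 7.75 and 9.66% of all genes. Their median change was −0.0059, against −0.016 for all tested genes. Of the 3 nearest genes on each side, those under the unadjusted threshold were Fem1b beside Gm10653 (−0.18 ± 0.065), Kcnc4, a potassium channel 8.65 kb from Slc6a17 (−0.50 ± 0.22), Ado beside Zfp365 (−0.14 ± 0.054), Crispld1 beside Gdap1 (−0.31 ± 0.071), Nop56 beside Cpxm1 (0.097 ± 0.040), and Col24a1 (−0.21 ± 0.088) and Bcl10 (0.14 ± 0.056) on the 2 sides of Ddah1. Their adjusted p ran from 0.125 to 0.271 by limma. The window of 6330403K07Rik, with 47 tested genes, held 10 of the 16 higher genes.

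**Figure D5:**
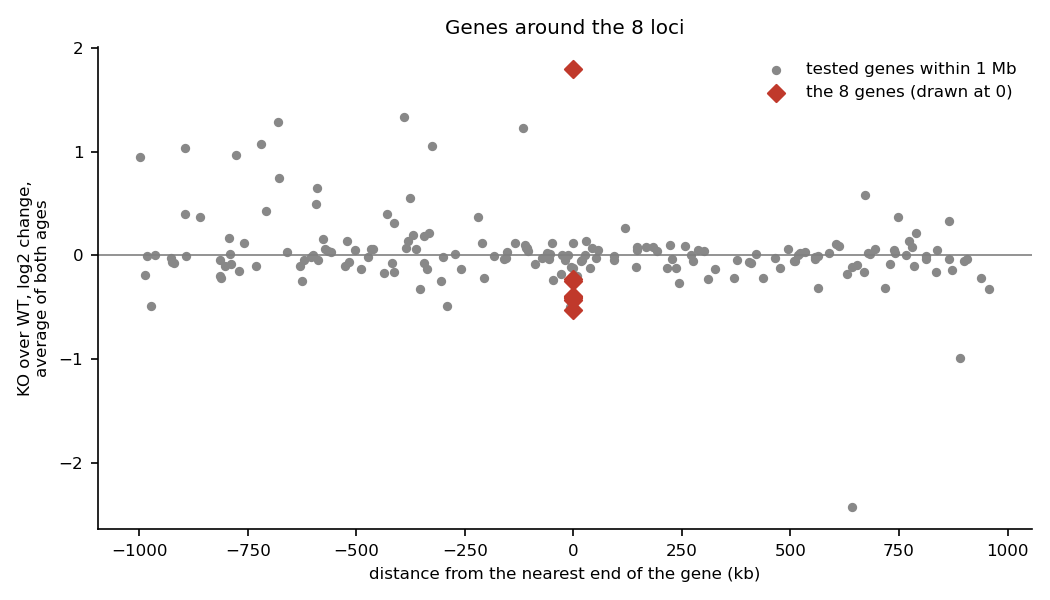
Log2 change of KO over WT, averaged over both ages, of 181 tested genes (grey) by their distance in kb from the end of the nearest of the 8 genes, which are drawn as red diamonds at 0. The neighbours scatter about 0 with a median of −0.0059, and none was called.

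Promoter sequence from RefSeq (GRCm38.p6, 250 bases before to 50 after a start) was at hand for 5 of the 8 genes, Slc6a17, Zfp365, Cpxm1, Ddah1 and 6330403K07Rik, with 2 starts for Slc6a17. Both strands were searched for 4 motifs. The AP-1 motif TGANTCA, bound by Jun and Fos proteins, of which c-Jun is a substrate of JNK, was found in Slc6a17 alone, once at each start, and in 7.81% of 32851 promoters. The CRE motif TGACGTCA was in none of the 5 genes and in 1.79% of promoters, the GC box GGGCGG in 4 of the 5 and in 35.7%, and the TATA box TATAAA in Zfp365 and in 13.6%. On mm9, by sequence match, the first start of Slc6a17 adjoins the first base of exon 1 of the deposited model and the second adjoins that of exon 2, so the window before the second start is the end of intron 1 there. The 100 bases before the first start are shown, with motif matches in capitals. This gene was chosen as the one of the 7 whose gap was of one size at both ages, a likeness that was not tested. They lie at chr3:107518019-107518118 on the minus strand of GRCm38.p6. A match describes the letters and not a bound site.

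Slc6a17: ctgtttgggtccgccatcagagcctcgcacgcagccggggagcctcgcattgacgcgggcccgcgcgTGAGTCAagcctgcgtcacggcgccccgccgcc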

How the data were processed

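RNA was taken from whole cochleae (RIN 9.2 to 9.7), and polyA+ stranded libraries were read as single ends of 50 bases. The authors checked reads with FastQC 0.10.1, aligned them to mm9 with TopHat2 2.0.10, Bowtie 1.0.0 and SAMtools 0.1.19, and quantified genes as FPKM with Cufflinks 2.2.1. The study's text gives the ages in weeks and the labels in months, and the labels are followed here.

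In the deposited FPKM table many decimal points were misplaced. Each gene's 3 values in a group were restored to the placing whose mean equals the authors' group FPKM within 2e-05. This gave 1 placing for 95778 of 95804 gene and group pairs and changed 55.4% of the single library values, and 24 genes were left out. The group names in those files are codes, matched to KO and WT by these means. The group FPKM is by that step no independent check of the restored values. Columns with the authors' fold changes, p-values and gene set results were not used.

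The 16271 of 23927 genes that averaged 0.5 FPKM or more were fitted with limma 3.58.1 (R 4.3.3) on log2(FPKM + 0.5) over all 4 groups, with a variance trend. Adjusted p-values are Benjamini-Hochberg over all tested genes, with calls under 0.05. The fit was tested on simulated data. Sequences were aligned with BLAST 2.17.0 (word size 16). The alternatives were other pseudocounts, filters, scalings and covariates, and leaving out libraries. The genes and the 18 lists were chosen with earlier results of these data known. Named neighbours are those of the 3 nearest on each side with an unadjusted p under 0.05, named list genes are up to 4 with the smallest p, and the genes most alike are the 3 with the highest r, of which some are printed and some are not reported here. Gad1, Slc32a1, Xist, Snap25 and Slc17a6 were named after their values were seen.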

Additional observations from a re-analysis of the deposited data

How the results depend on the processing

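No paired analysis was possible because the labels match no library of a group to a library of another. The counts of called genes depended on the settings. At 5 months 11 genes were called, against 4 to 16 with 1 library left out, 7 without the filter, 18 with median ratio scaling, 5 without the variance trend, 18 with the code letter, 7 with Xist and 3 with the neutrophil markers as covariate, and 4 with the 2 groups fitted alone. At 8 months 2 were called, against 2 to 6 with 1 library left out and 4 with the 2 groups alone. Over both ages 13 were called, against 3 to 22 with 1 library left out, 25 with the code letter, 3 with the neutrophil covariate and 5 without E7 and F5. With age 1 gene was called, against 0 to 5 with 1 library left out, 2 and 0 at pseudocounts of 0.1 and 1, 0 without the filter, 11 with the code letter, 0 with Xist, 0 with the neutrophil covariate and 4 without E7 and F5. The neutrophil covariate and leaving out E7 and F5 were added after seeing the data. The code letter differs within a group only in KO at 5 months, so with it the 5-month change is E7 alone against the WT libraries. The causes were not tested.

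Of the 8 genes, Gm10653 was called in 24 of 25 settings at 5 months, all but the 2 groups alone, and in 25 of 25 at 8 months. Zfp365 was called in 13 of 25 at 5 months, and Rab30, Cpxm1, Ddah1, Gdap1 and 6330403K07Rik in 7 to 9. These counts refit the values that chose the genes, so they describe the settings and are no test of the genes. Of 192 recomputed changes at 5 months, 187 moved by less than the spread between libraries. The others were Gm10653 (1.92) and Ddah1 (−0.56) with the code letter, where E7 alone stands for KO. With the neutrophil covariate they were Gdap1 (−0.75), Rab30 (−0.88) and Ddah1 (−0.32). The change of Zfp365 with age, −0.012, turned sign in 7 of its 23 alternatives: 0.0066 with quantile normalization, 0.040 with the code letter, 0.023 with Xist, 0.0079 without E7 and F5, and −0.046 to 0.015 with 1 library left out. Depth is unknown, so no counting error can be given.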
